A study of Mus musculus with 20 samples.

Results

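The 10 genes described here code for transcription factors that are known to drive epithelial-mesenchymal transition (EMT): Snai1, Snai2, Snai3, Zeb1, Zeb2, Twist1, Twist2, Prrx1, Prrx2 and Foxc2. They were taken by name, without a cut on their values but with earlier results of these data known. Every probeset of the array that is annotated to one of these genes alone was used. This gave 24 of 45037 probesets. Each gene was represented by its brightest probeset, judged by the mean of the 20 arrays, so that the factors are 10 of 18193 genes, and the other probesets served as a check. Snai1, Zeb1 and Zeb2 had already been chosen on these same samples, so their direction with tumor grade is no independent evidence. The study also named Tgfbr2, Dab2, Cdh1 and Dsp from its comparison of grades, and the same limit holds where they appear below.

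Expression was measured on Affymetrix MOE430 2.0 arrays, with 1 array of total RNA for each sample. Normal skin came from 5 wild type samples of mice aged 2 months. Tumors were 7 skin carcinomas from Trp53ΔEC mice, in which floxed Trp53 alleles are deleted by Cre under the keratin K14 promoter, and 8 carcinomas from RbΔEC; Trp53ΔEC mice (Rb;Trp53 from here on), in which floxed Rb1 alleles are deleted as well. All samples are of FVB strain, all tumors share the Trp53 deletion, and the wild type skin carries neither deletion. The promoter is active in stratified epithelia, so stromal and immune cells of the tumors keep both genes, and whole tumors were extracted. By histology 6 tumors were poorly differentiated, 3 undifferentiated, 2 spindle cell carcinomas and 4 mixed, that is with differentiated and undifferentiated areas. Undifferentiated and spindle cell carcinomas were joined into 5 undifferentiated/spindle carcinomas. Tumor age is missing from the labels, so age and tumor growth cannot be told apart. The labels also leave unsaid whether different mice gave the tumors, and the spread behind the p-values is that between these samples alone.

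In EMT, epithelial cells lose their junctions and polarity and take on the motile form of mesenchymal cells. Snail and Zeb proteins are zinc finger repressors that bind E-boxes in the promoters of junction genes such as E-cadherin. Twist proteins are basic helix-loop-helix factors that pair with E proteins, Prrx proteins are homeobox factors of the mesenchyme, and Foxc2 is a forkhead factor of mesoderm and vessels. In skin most of these factors are also made by dermal fibroblasts and other stromal cells, and Snai2 is made by basal keratinocytes too. In bulk tissue fewer cells of a type and less RNA per cell cannot be told apart.

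Some arrays stood apart on a scale that does not use the 10 factors. The mean log2 level of 8 keratinocyte markers was 12.24 to 12.56 in normal skin and 11.47 to 13.09 in poorly differentiated tumors. Among the undifferentiated/spindle carcinomas it was 5.22 to 5.35 in 3 tumors, but 9.36 in Trp53 tumor 2 and 8.0 in Rb;Trp53 tumor 1. Among the mixed tumors it was 9.0 to 9.93 in the 3 Trp53 tumors and 5.55 in Rb;Trp53 tumor 4. Normal skin also held muscle and fat: the mean level of 9 skeletal muscle markers was 11.53 to 12.22 in skin and 4.59 to 8.42 in tumors, and all 9 were lower in tumors, as were all 5 adipocyte markers. The targeted Rb1 transcript read 8.95 to 9.26 in skin, 7.85 to 8.84 in Trp53 tumors and 6.55 to 8.14 in Rb;Trp53 tumors.

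Tumor grade was addressed first. Values are log2 RMA values, on which 1 unit is a 2-fold change, and the test was limma's moderated one, two-sided, called at a Benjamini-Hochberg adjusted p under 0.05 over all 18193 genes. In undifferentiated/spindle against poorly differentiated carcinomas, 6 of the 10 factors were higher (Snai1, Zeb1, Twist1, Prrx1, Prrx2 and Foxc2), 2 were lower (Snai2 and Snai3) and 2 did not pass the test (Zeb2 and Twist2). Of all genes tested, 22.6% were called in this comparison, 12.7% as higher and 9.9% as lower. The median log2 difference was 1.81 over the 10 factors and 0.015 over all genes. In 5 factors the groups did not overlap, with 4 above (7.43% of all genes) and 1 below (6.89%). Without both undifferentiated/spindle tumors that kept keratinocyte markers, 4 factors were higher (Snai1, Zeb1, Prrx2 and Foxc2) and 0 lower. The share of all genes called in this smaller fit was not counted, so the fall in calls cannot be set against all genes. Twist1 at 2.18 and Prrx1 at 2.19 kept their size and missed the threshold (limma adjusted p = 0.0603 and 0.0725), as did Snai2 at -1.18 and Snai3 at -0.88 (0.138 and 0.108).

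**Figure D1:**
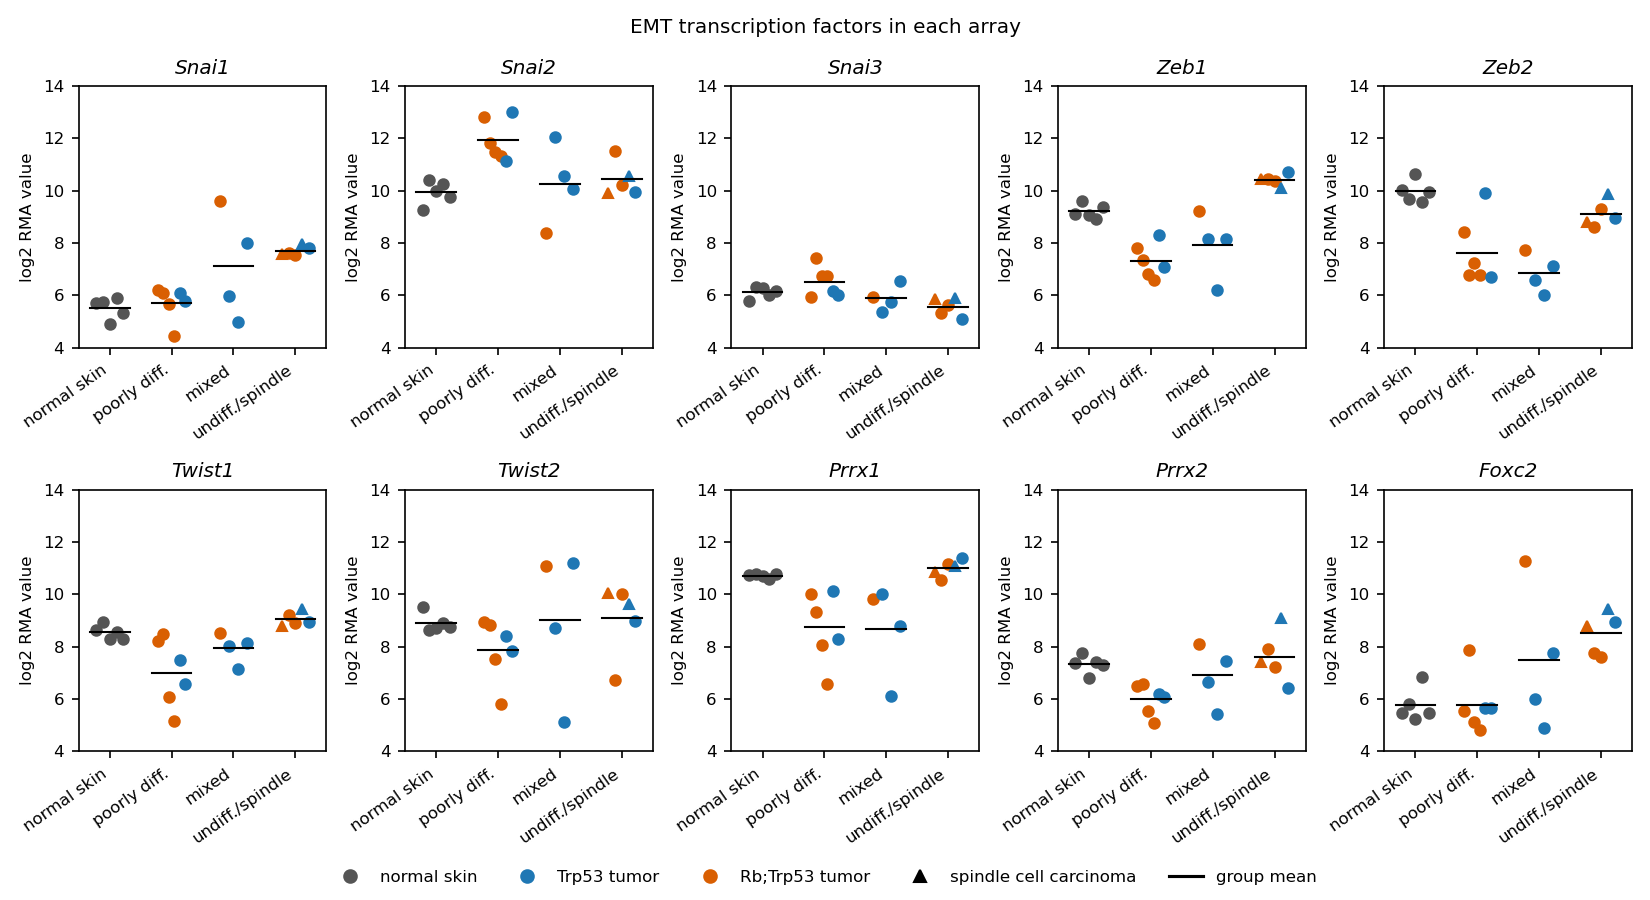
Log2 RMA value (y axis) of each EMT transcription factor in every array, by histological group (x axis); circles and triangles are single arrays coloured by genotype, triangles are spindle cell carcinomas and black bars are group means. In Snai1 and Zeb1 the 5 undifferentiated/spindle carcinomas lie close together, at 7.53 to 7.98 and 10.12 to 10.70, above all poorly differentiated tumors, while the 4 mixed tumors spread widely.

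Markers of other cell types moved with grade too. Of 7 macrophage markers 5 were higher in undifferentiated/spindle carcinomas, among them Cx3cr1, the fractalkine receptor, by 3.61. Their mean level was 7.14 to 9.71 in poorly differentiated and 10.26 to 10.80 in undifferentiated/spindle tumors, with 8.74 to 9.52 in skin. Of 7 endothelial markers 5 were higher, the most VE-cadherin (Cdh5) by 1.64, with mean levels of 5.73 to 7.25 and 7.15 to 8.30. Of 9 fibroblast markers 1 was higher, the growth factor receptor Pdgfra, by 2.89, and their mean level was 8.73 to 11.87 in poorly differentiated tumors, 11.48 to 12.03 in undifferentiated/spindle tumors and 12.47 to 12.69 in skin. All 8 keratinocyte markers were lower, with Krt14, the basal keratin, at -7.38. Of 4 T cell and 5 mast cell markers 0 were called, of 6 pericyte and smooth muscle and 5 melanocyte markers 1 each was lower, and of 4 Schwann cell markers 1 was higher and 1 lower. The Actb control was read as its 3' minus its 5' probeset, a sign of RNA degradation where it is large. It was 0.42 to 0.82 in poorly differentiated and 0.24 to 0.38 in undifferentiated/spindle tumors. In skin this control was 0.50 to 1.19 and in mixed tumors 0.38 to 0.66. The part of these cell types and of RNA quality in the differences of the 10 factors was not tested.

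The 3 Snail factors differed in direction. Snai1, the founding repressor of E-cadherin in this family, read 7.98 and 7.82 in the Trp53 undifferentiated/spindle carcinomas and 7.58, 7.62 and 7.53 in the Rb;Trp53 ones. In the 6 poorly differentiated tumors its lowest value was 4.45, the median 5.94 and the highest 6.19. These groups did not overlap, and the difference was 1.99 ± 0.28 (SE, limma adjusted p = 0.000376).

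Snai2, known as Slug and active in basal keratinocytes and wound healing, moved the other way. It read 10.55 and 9.96 in the Trp53 and 9.91, 11.53 and 10.20 in the Rb;Trp53 undifferentiated/spindle carcinomas. Poorly differentiated tumors ran from 11.15 through a median of 11.66 to 12.99. Only Rb;Trp53 tumor 3, at 11.53, lay within their range, and the difference was -1.51 ± 0.40 (SE, limma adjusted p = 0.0189). The second Snai2 probeset gave -1.38 and was called too (limma adjusted p over all probesets = 0.0248).

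Snai3, the least studied member of the family, read 5.92 and 5.11 in the Trp53 and 5.86, 5.33 and 5.65 in the Rb;Trp53 undifferentiated/spindle carcinomas. The poorly differentiated tumors lay just above, from 5.93 through 6.46 to 7.43. The groups touched without overlap, and the difference was -0.93 ± 0.27 (SE, limma adjusted p = 0.028). This call was lost without any one of 5 tumors (Trp53 tumor 2, Rb;Trp53 tumors 3, 5, 7 and 8), with adjusted p between 0.0514 and 0.0698 in limma. The second Snai3 probeset gave -0.64 and was not called (adjusted p over all probesets = 0.117).

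Of the 10 factors, 6 have a RefSeq promoter window from 250 bases before to 50 bases after a transcription start (build GRCm38.p6): Snai1, Zeb2, Twist1, Twist2, Prrx1 and Prrx2. Each window was searched for the E-box CAGGTG, which reads CACCTG on the other strand and which Snail and Zeb proteins are known to bind. Snai1 is the only one of the 6 with a match, and 22.6% of all 27025 genes with a window have one. Its match starts at position -126 from the transcription start. The stretch of 150 bases before the start is shown because Snail protein is known to act on its own promoter, with the E-box in capitals, at chr2:167538045-167538194 on the plus strand.
Snai1: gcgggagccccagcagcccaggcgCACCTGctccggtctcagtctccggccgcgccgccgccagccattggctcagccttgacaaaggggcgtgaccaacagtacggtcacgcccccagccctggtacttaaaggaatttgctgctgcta
A match is a description of the sequence and says nothing of binding in these tumors.

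The Zeb factors, large proteins with a pair of zinc finger clusters, both had higher means in undifferentiated/spindle carcinomas, but only Zeb1 passed the test. Zeb1 read 10.12 and 10.70 in the Trp53 and 10.43, 10.45 and 10.38 in the Rb;Trp53 undifferentiated/spindle carcinomas, and 6.57 to 8.32, with a median of 7.21, in poorly differentiated tumors. No other factor showed a larger difference, at 3.09 ± 0.28 (SE, limma adjusted p = 1.67e-05). The tumors that kept keratinocyte markers read 10.70 and 10.43, and the other 3 read 10.12 to 10.45. Of the 3 other Zeb1 probesets, 2 were called higher, by 1.20 and 1.68, and the dimmest, with a mean of 3.34 over all arrays, gave -0.10 and was not called.

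Zeb2 read 9.89 and 8.95 in the Trp53 and 8.81, 8.62 and 9.31 in the Rb;Trp53 undifferentiated/spindle carcinomas. Poorly differentiated tumors ran from 6.69 through 7.01 to 9.90, and the highest, Trp53 tumor 4, lay above all 5. The difference of 1.48 ± 0.55 (SE) was not called (limma adjusted p = 0.0789). Without Trp53 tumor 4, whose macrophage markers had the highest mean level of its group (9.71), it was 1.93 with an adjusted p of 0.00281 in limma. Of the 4 other Zeb2 probesets 1 was called, higher by 1.76 (adjusted p over all probesets = 0.0258), and the other three gave 0.36 to 1.11.

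Twist1, a factor of head mesenchyme and limb buds, read 9.42 and 8.93 in the Trp53 and 8.77, 9.20 and 8.91 in the Rb;Trp53 undifferentiated/spindle carcinomas. It ran from 5.16 through 7.03 to 8.49 in poorly differentiated tumors. The groups did not overlap, the spread among poorly differentiated tumors was wide, and the difference was 2.05 ± 0.53 (SE, limma adjusted p = 0.0165; 0.0573 in the test of the methods). Twist2, a dermal factor also called Dermo1, read 9.63 and 8.98 in the Trp53 and 10.06, 6.73 and 10.02 in the Rb;Trp53 undifferentiated/spindle carcinomas. Poorly differentiated tumors lay between 5.80 and 8.93, with a median of 8.11. Undifferentiated Rb;Trp53 tumor 3, at 6.73, lay among the poorly differentiated values, and the difference of 1.21 ± 0.69 (SE, 95% interval -0.30 to 2.71) was not called (limma adjusted p = 0.249). Without this tumor it was 1.80 and passed (limma adjusted p = 0.0447).

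Both Prrx genes were higher. Prrx1, a homeobox gene of limb and dermal mesenchyme, read 11.06 and 11.38 in the Trp53 and 10.83, 10.56 and 11.14 in the Rb;Trp53 undifferentiated/spindle carcinomas, against 6.58 to 10.14, with a median of 8.80, in poorly differentiated tumors. The groups did not overlap, and the difference was 2.26 ± 0.56 (SE, limma adjusted p = 0.0134). Of the 5 other Prrx1 probesets, 4 were called higher, by 2.58 to 2.74. Prrx2, its paralog, read 9.09 and 6.43 in the Trp53 and 7.40, 7.89 and 7.21 in the Rb;Trp53 undifferentiated/spindle carcinomas, and 5.07 to 6.57, with a median of 6.13, in poorly differentiated tumors. Only undifferentiated Trp53 tumor 2, at 6.43, fell within the poorly differentiated range, and the difference was 1.62 ± 0.43 (SE, limma adjusted p = 0.0183; 0.0772 in the test of the methods).

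Foxc2 read 9.43 and 8.93 in the Trp53 and 8.80, 7.74 and 7.62 in the Rb;Trp53 undifferentiated/spindle carcinomas. In poorly differentiated tumors it ran from 4.81 through 5.59 to 7.87, where the highest value, Rb;Trp53 tumor 6, stood above 2 of the 5 undifferentiated/spindle carcinomas. The difference was 2.74 ± 0.52 (SE, limma adjusted p = 0.003). The spindle cell carcinomas, Trp53 tumor 1 and Rb;Trp53 tumor 1, read 9.43 and 8.80 and the 3 undifferentiated ones 8.93, 7.74 and 7.62, a difference that was not tested. Of the 10 factors Foxc2 had the largest SD over the 20 arrays, at 1.80, which is percentile 96.6 among all genes, and Snai3 had the smallest, at percentile 60.3.

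Normal skin gave the level from which these groups depart. All comparisons with skin share the same 5 skin samples, so they are set side by side and were not correlated. Those of single classes were made in 1 fit of 4 groups. In poorly differentiated tumors against skin 1 factor was higher, Snai2, and 5 were lower: Zeb1, Zeb2, Twist1, Prrx1 and Prrx2. Of all genes 38.7% were called in this comparison, 19.2% higher and 19.6% lower. The median difference of the factors was -1.18, against 0.0012 for all genes, and the groups did not overlap in 4 factors, with Snai2 above (14.3% of all genes) and Zeb1, Prrx1 and Prrx2 below (14.4%). In undifferentiated/spindle carcinomas against skin 3 factors were higher (Snai1, Zeb1 and Foxc2) and 0 lower, against 42.2% of all genes called, 22% higher and 20.2% lower. The median there was 0.39, against 0.015 for all genes, and the same 3 factors lay above skin without overlap, against 19.8% of all genes. At an unadjusted p under 0.05 limma also gave 0 lower. By contrast the test of the methods, one gene at a time, called 4 factors higher, with Twist1 added, and 2 lower, Snai3 and Zeb2. That test called 8003 of all 18193 genes. Without both undifferentiated/spindle tumors that kept keratinocyte markers, 1 factor was higher, Snai1, while Zeb1 at 1.10 and Foxc2 at 2.50 missed the threshold (limma adjusted p = 0.0966 and 0.073). Here too the share of all genes called without these tumors was not counted.

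**Figure D2:**
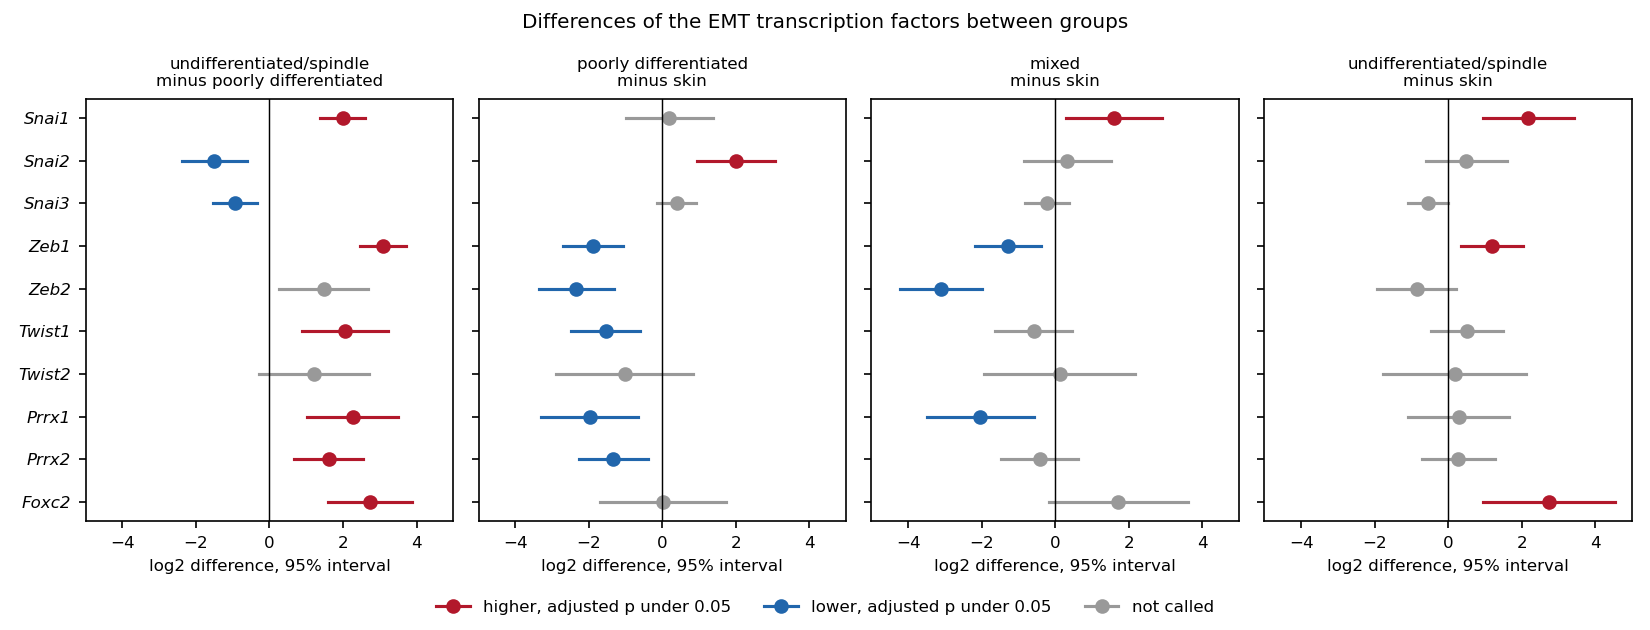
Log2 difference (x axis) of each EMT transcription factor (y axis) in 4 comparisons, with its 95% interval from limma; red and blue mark factors called higher and lower, grey those not called. In the first panel 6 factors are called higher and 2 lower, whereas 5 factors lie below skin in poorly differentiated tumors and 3 lie above skin in undifferentiated/spindle carcinomas.

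The factors fell into distinct orders of level. Zeb1 read 9.11, 9.62, 9.08, 8.93 and 9.36 in skin, between the other groups. The difference was -1.89 in poorly differentiated tumors (limma adjusted p = 0.000746) and 1.20 in undifferentiated/spindle carcinomas (limma adjusted p = 0.023), and neither group overlapped with skin. The latter call was lost without skin sample 4 (1.12, adjusted p = 0.0515) or Trp53 tumor 2 (1.12, adjusted p = 0.0502). Snai1 read 5.72, 5.75, 4.91, 5.92 and 5.33 in skin and did not differ detectably in poorly differentiated tumors (0.19, 95% interval -0.99 to 1.37). It was higher than in skin in undifferentiated/spindle carcinomas, by 2.18 ± 0.59 (SE, limma adjusted p = 0.00566). Foxc2 had the same order, with 5.46, 5.82, 5.22, 6.85 and 5.45 in skin, a difference of 0.0079 in poorly differentiated tumors (95% interval -1.71 to 1.72) and of 2.74 ± 0.85 (SE) in undifferentiated/spindle carcinomas (limma adjusted p = 0.0144). The median probeset of the arrays read 5.58 to 5.63 in skin and 5.68 to 5.75 in poorly differentiated tumors. Snai1 and Foxc2 averaged close to that level in both groups, and whether they were detected there was not tested.

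Twist1, Prrx1, Prrx2 and Zeb2 were lower than skin in poorly differentiated tumors and not called in undifferentiated/spindle carcinomas, in the fit of 4 groups. That fit shares 1 spread over all groups. In a limma fit of undifferentiated/spindle carcinomas and skin alone, Zeb2 was called lower and Twist1 higher (adjusted p = 0.0167 and 0.0224). Prrx1 was nearly constant in skin, at 10.75, 10.79, 10.68, 10.57 and 10.78. It was at -1.98 in poorly differentiated tumors (limma adjusted p = 0.0172) and at 0.28 in undifferentiated/spindle carcinomas (95% interval -1.09 to 1.65). Zeb2 read 10.04, 9.67, 10.64, 9.58 and 9.96 in skin, a range that only Trp53 tumors 4 and 1 reached, at 9.90 and 9.89. It gave -2.34 in poorly differentiated tumors (limma adjusted p = 0.000826) and -0.86 in undifferentiated/spindle carcinomas (95% interval -1.92 to 0.20). Twist1 read 8.65, 8.92, 8.27, 8.57 and 8.30 in skin and gave -1.55 and 0.50, and of the poorly differentiated tumors only Rb;Trp53 tumor 6, at 8.49, reached the skin range. Prrx2 read 7.37, 7.75, 6.79, 7.41 and 7.31 in skin and gave -1.34 and 0.28 in the same order. The Prrx2 call against skin was lost without skin sample 2 (adjusted p = 0.0587) or Rb;Trp53 tumor 8 (adjusted p = 0.0572).

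Snai2 was highest in poorly differentiated tumors. It read 9.28, 10.42, 9.99, 10.26 and 9.75 in skin, all below the lowest poorly differentiated tumor at 11.15, and the difference was 2.00 ± 0.51 (SE, limma adjusted p = 0.00415). Undifferentiated/spindle carcinomas gave 0.49 (95% interval -0.62 to 1.60). The kept probesets of Snai3 and Twist2 were not called in either comparison in the fit of 4 groups. In a limma fit of undifferentiated/spindle carcinomas and skin alone, Snai3 was called lower (adjusted p = 0.0212). Snai3 read 5.80, 6.32, 6.30, 6.02 and 6.15 in skin and gave 0.39 in poorly differentiated tumors and -0.55 in undifferentiated/spindle carcinomas. The second Snai3 probeset gave 0.69 in poorly differentiated tumors and was called higher (limma adjusted p over all probesets = 0.0267). Twist2 read 9.50, 8.65, 8.72, 8.91 and 8.73 in skin and gave -1.03 (95% interval -2.89 to 0.83) and 0.18. Poorly differentiated tumors lay within or below the narrow skin range, and undifferentiated/spindle carcinomas on both sides of it, from 6.73 to 10.06. Fibroblast markers were lower as well: 7 of 9 were lower in poorly differentiated tumors than in skin and 2 of 9 in undifferentiated/spindle carcinomas. Their part in the values of Zeb, Twist and Prrx genes was not tested.

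The reading of Prrx1 and Zeb2 against skin depended on the probeset. For Prrx1 the kept probeset, 1425528_at, gave 0.28 in undifferentiated/spindle carcinomas against skin. Of the 5 others, 1425526_a_at gave 1.87, 1425527_at 1.68 and 1432129_a_at 2.01, all called higher, 1439774_at gave 1.16 and was not called, and the dimmest, 1458004_at, gave -0.47 and was called lower. For Zeb2 the kept probeset 1422748_at and 1456389_at gave -0.86 and -0.87, whereas 1434298_at, 1458941_at and 1454200_at gave 0.47, 0.51 and 0.76, the last called higher (adjusted p over all probesets = 0.0287). The Zeb1 probesets agreed on undifferentiated/spindle carcinomas, with 3 of 4 called higher than skin, but in poorly differentiated tumors they gave -1.89, -0.31, -0.06 and 0.12.

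**Figure D3:**
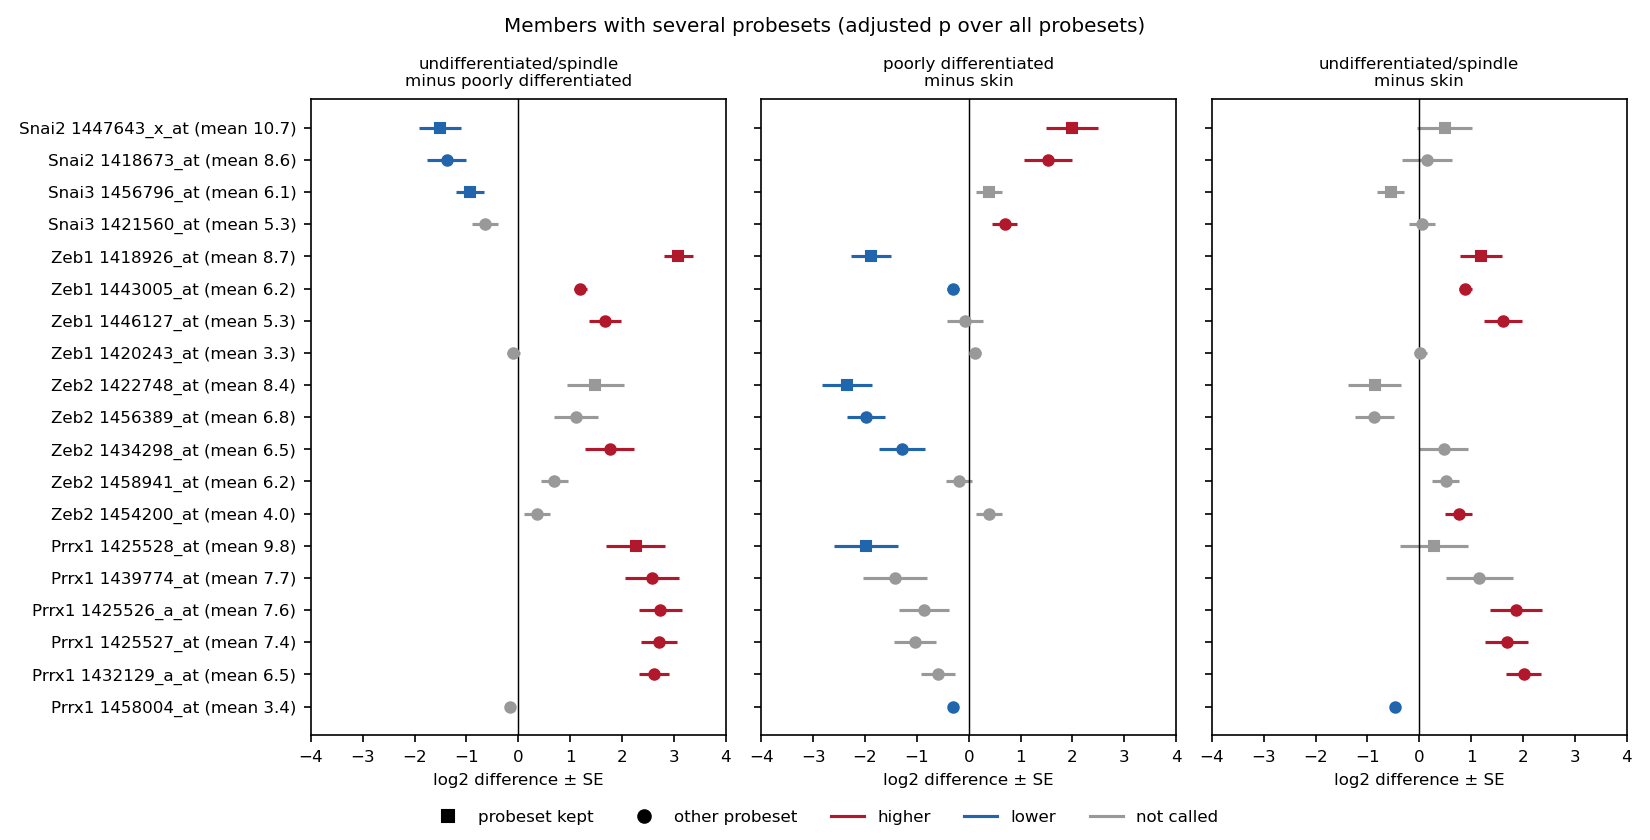
Log2 difference ± SE (x axis) of every probeset (y axis, with its mean log2 value over the 20 arrays) of the 5 factors that have several probesets, in 3 comparisons; squares are the probesets kept. By grade the Prrx1 probesets cluster at 2.26 to 2.74 except the dimmest one, while against skin they spread from -0.47 to 2.01 in undifferentiated/spindle carcinomas.

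Mixed tumors had the largest SD of the 4 groups in 7 of the 10 factors, and poorly differentiated tumors had it in Zeb2, Twist1 and Snai3. The range of Foxc2 over the 4 mixed tumors was 6.38 log2 units, from 4.89 in Trp53 tumor 5 through 6.0 and 7.76 in Trp53 tumors 3 and 7 to 11.27 in Rb;Trp53 tumor 4. Snai1 read 5.97, 4.97 and 7.99 in Trp53 tumors 3, 5 and 7 and 9.60 in Rb;Trp53 tumor 4. Twist2 read 8.72, 5.11, 11.20 and 11.06 in the same order. Rb;Trp53 tumor 4 thus held the highest Snai1 and Foxc2 of all 20 arrays and the lowest Snai2, at 8.37, while Trp53 tumor 5 held the lowest Zeb1, Zeb2, Twist2 and Prrx1, at 6.20, 6.01, 5.11 and 6.10. The macrophage markers of Rb;Trp53 tumor 4 had a mean level of 7.37 and its fibroblast markers 9.92, below every undifferentiated/spindle carcinoma, and the part of either cell type in the values of this tumor was not tested. In Trp53 tumor 5 the fibroblast markers were at 8.79, the lowest of the mixed tumors. Zeb2 varied less, at 6.59, 6.01 and 7.14 in Trp53 tumors 3, 5 and 7 and 7.74 in Rb;Trp53 tumor 4, all below skin. Zeb1 read 8.17, 6.20, 8.14 and 9.22 in the same order, so that Rb;Trp53 tumor 4 alone reached the skin level. Snai2 read 12.07, 10.56 and 10.07 in the Trp53 tumors and 8.37 in Rb;Trp53 tumor 4.

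Against skin, 1 factor was higher in mixed tumors, Snai1 by 1.61 (limma adjusted p = 0.0447), and 3 were lower, Zeb1 at -1.29, Zeb2 at -3.11 and Prrx1 at -2.04. Of all genes 43.4% were called, 21.9% higher and 21.5% lower, and the factors' median was -0.32, against -0.0053 for all genes. Mixed tumors lay below skin without overlap in 2 factors, Zeb2 and Prrx1, against 17.8% of all genes. Of the markers, 8 of 8 keratinocyte, 7 of 9 fibroblast, 5 of 7 macrophage and 5 of 7 endothelial genes were lower in mixed tumors than in skin as well, and their part in these differences was not tested. Snai1 lost its call in 17 of the 20 fits that left out 1 array, with every array centred on its median (1.49, adjusted p = 0.0586) and in the test of the methods (adjusted p = 0.343), and was 0.78 (adjusted p = 0.216) without Rb;Trp53 tumor 4. Without Trp53 tumor 5, Zeb1 (-0.71) and Prrx1 (-1.18) lost theirs and Foxc2 was higher by 2.58 (limma adjusted p = 0.0221). With the median of a gene's probesets Zeb1 gave -0.008 and Prrx1 -0.67, neither called (limma adjusted p = 0.98 and 0.299). In the test of the methods neither was called (adjusted p = 0.24 and 0.21). Zeb1 was also not called in a limma fit of mixed tumors and skin alone (adjusted p = 0.0691). The other Zeb1 probesets gave -0.07, 0.05 and 0.14 and were not called. With Trp53 tumor 5 and Rb;Trp53 tumor 4 both left out, Snai1 at 1.45, Zeb1 at -1.06 and Zeb2 at -3.12 were called, with limma adjusted p of 0.0205, 0.0207 and 0.0014, and Prrx1 at -1.32 was not.

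Against poorly differentiated tumors, 0 factors were higher in mixed tumors and 1 was lower, Snai2 at -1.67 (limma adjusted p = 0.0295), against 25.4% of all genes called, 13.5% higher and 11.9% lower. At an unadjusted p under 0.05 limma gave 1 factor higher, Snai1, and 2 lower, Snai2 and Snai3. The test of the methods called 0 factors and 870 of all 18193 genes. All 8 keratinocyte markers were lower too, with a median of -3.87, and their part in the Snai2 difference was not tested. The Snai2 call was lost without any one of 4 tumors, Trp53 tumors 6 and 7 and Rb;Trp53 tumors 2 and 4, with -1.03 (adjusted p = 0.141) without the last. Without Trp53 tumor 5, 5 factors were higher: Snai1 by 2.14, Zeb1 by 1.18, Twist2 by 2.45, Prrx2 by 1.40 and Foxc2 by 2.57, with adjusted p of 0.00547 to 0.03 in limma. The 13.5% of all genes belongs to the fit with this tumor. No share was counted without it, so this count cannot be set against all genes.

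Against undifferentiated/spindle carcinomas, mixed tumors had 3 factors lower and 0 higher, against 19.3% of all genes called, 10.2% lower and 9.15% higher. Zeb1 was at -2.48 (limma adjusted p = 0.000542), Zeb2 at -2.25 (0.00625) and Prrx1 at -2.32 (0.0242), and mixed tumors lay below all undifferentiated/spindle carcinomas in these 3 and in Twist1, against 8.18% of all genes. At an unadjusted p under 0.05 limma also gave 0 higher. Snai1 and Foxc2 were not called, at -0.57 (95% interval -1.88 to 0.73) and -1.03 (95% interval -2.93 to 0.88). The Zeb1 and Zeb2 calls held without Trp53 tumor 5 and Rb;Trp53 tumor 4 together, at -2.26 and -2.25, and the Prrx1 call did not, at -1.60 (adjusted p = 0.12). All 7 macrophage markers were lower in mixed tumors than in undifferentiated/spindle carcinomas, with mean levels of 7.37 to 8.47 against 10.26 to 10.80, and their part in these differences was not tested.

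**Figure D4:**
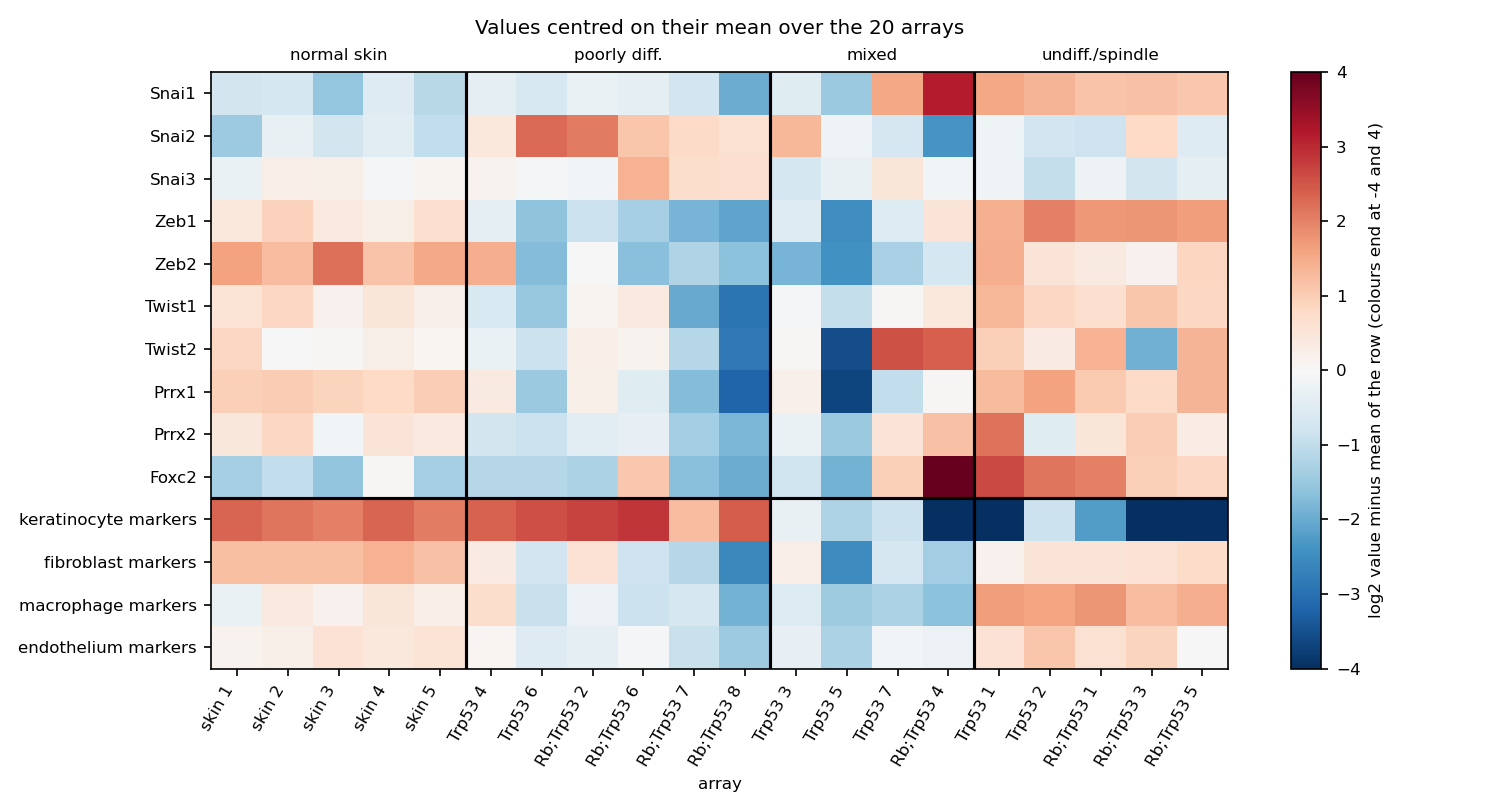
Log2 value of each EMT transcription factor, and below the line the mean log2 level of 4 marker lists, in each array (x axis, grouped by histology), with the row's mean over the 20 arrays subtracted (colours). Rb;Trp53 tumor 4 of the mixed group has the darkest red in Snai1 and Foxc2 beside blue keratinocyte, fibroblast and macrophage rows, and Trp53 tumor 5 and poorly differentiated Rb;Trp53 tumor 8 are blue in most factors.

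Over all 15 tumors against skin 1 factor was called, Zeb2, at -2.05 ± 0.57 (SE, limma adjusted p = 0.00746), where 35.7% of all genes were called, 17.7% higher and 18% lower. No factor was called higher in limma, at an unadjusted p either. The test of the methods called Snai1 and Snai2 higher and Zeb2 and Prrx1 lower, and it called 8440 of all 18193 genes. The Zeb1 difference was -0.70 (95% interval -2.14 to 0.74), and Snai1 gave 1.23 (95% interval -0.04 to 2.50).

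The genotypes were compared next, to ask whether Rb1 loss beside Trp53 loss changed the factors. Of the 10 factors 0 were called between the 8 Rb;Trp53 and 7 Trp53 tumors, where 0.033% of all genes were called. At the threshold of 0.1 of the methods it was again 0, against 0.055% of all genes, and 0 factors had an unadjusted p under 0.05 in limma or in the test of the methods. Differences lay between -0.11 for Snai2 and 0.45 for Foxc2, with 95% intervals of -1.43 to 1.20 and -1.63 to 2.53. With the histological class as a covariate 0 factors were called as well, with differences of -0.55 for Snai2 to 0.82 for Foxc2. The difference by grade was compared between genotypes in 1 fit with an interaction, which gave 0 factors, at an unadjusted p under 0.05 too, and 0% of all genes. Zeb1 by grade differed between the genotypes by 0.56 (95% interval -0.75 to 1.88), Snai1 by 0.02 (95% interval -1.32 to 1.36), and the largest value was that of Foxc2, at -1.32 (95% interval -3.76 to 1.12), lower in Rb;Trp53 tumors. With 2 tumors of each grade in the Trp53 group, differences of this size were not detectable.

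Genes that work with the factors were taken from lists of textbook members, and their counts stand against 12.7% of all genes called higher and 9.9% called lower by grade. Of 13 E protein partners, Id antagonists and other EMT-linked factors, 4 were higher by grade and 2 lower, with a median of 0.32. Hmga2, a chromatin factor known to induce Snail and Twist genes, was higher by 4.21 (limma adjusted p = 0.0121). Tcf4, an E protein that pairs with Twist factors, was higher by 1.67 (0.00134). Id1, which holds E proteins inactive, was at -2.39 (0.000821), and the forkhead gene Foxq1 was at -2.26 (0.00058).

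Of 12 genes listed as corepressors of Snail and Zeb proteins, 0 were higher and 1 lower, with a median of 0.07. This was Ajuba, a LIM protein, at -1.96 (limma adjusted p = 0.000167). Lats2, a kinase kept in this list though not itself a corepressor, at 0.57, Rcor1 at -0.24 and Limd1 at 0.19 were not called. Against skin 6 of the 12 were higher and 1 lower in poorly differentiated tumors, and 5 higher and 2 lower in undifferentiated/spindle carcinomas, where 38.7% and 42.2% of all genes were called. Of 10 regulators of Snail protein stability, 4 were higher and 0 lower, and 6 did not pass. Loxl3, a lysyl oxidase-like enzyme, was higher by 3.33 (limma adjusted p = 0.000129) and the kinase Prkd1 by 2.06 (0.00284), and Csnk1e and Btrc by 0.68 and 0.45. Since 4 of the 10 were higher while the median was -0.08, the list did not move as one. Of 11 inducing signals, 2 were higher, the TGF-beta receptor Tgfbr2 by 1.22 (0.000744) and its effector Smad3 by 0.68 (0.0337), and 1 lower, the hypoxia factor Hif1a at -0.84 (0.0287). Tgfb3 was at 0.61 and not called.

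Of 25 epithelial genes reported as targets that EMT factors repress, 19 were lower and 0 higher, with a median of -2.60. The desmosome gene Dsp was at -6.59, the splicing factor Esrp1 at -6.08, the adhesion gene Epcam at -5.30 and Cdh1, which codes for E-cadherin, at -5.22, with limma adjusted p between 1.74e-06 and 0.000332. Of 16 mesenchymal genes reported as induced, 6 were higher and 1 lower, with a median of 1.14. Cdh2, which codes for N-cadherin, was higher by 4.63, the receptor tyrosine kinase Axl by 2.67 and fibronectin (Fn1) by 2.43, whereas the gelatinase Mmp9 was at -2.33, with limma adjusted p between 5.62e-05 and 0.0045. The median over all genes was 0.015.

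**Figure D5:**
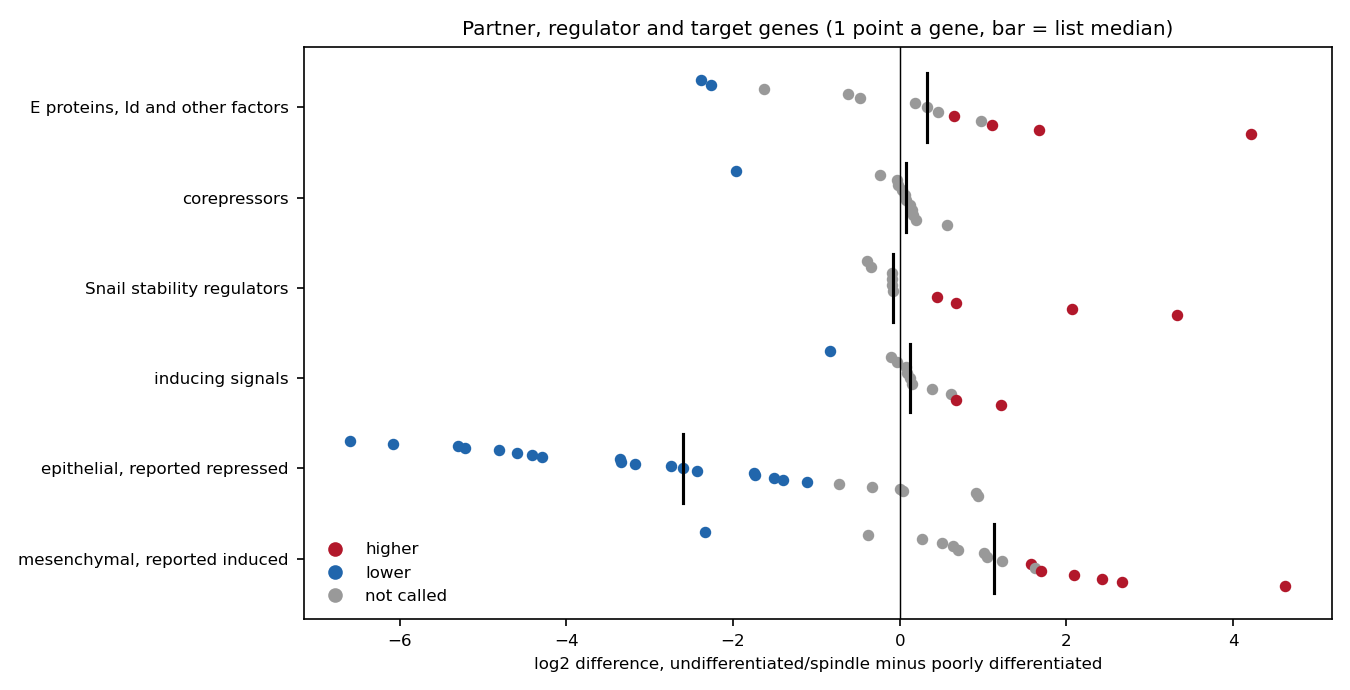
Log2 difference between undifferentiated/spindle and poorly differentiated carcinomas (x axis) for each measured gene of the lists (y axis), 1 point a gene, with the list median as a black bar. Of 25 epithelial genes 19 are called lower, and corepressors lie close to 0 except Ajuba at -1.96.

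The promoters of the epithelial genes were searched for the same E-box. RefSeq windows were found for 16 of the 25, and 14 of the 16 (87.5%) held CAGGTG or CACCTG, against 22.6% of all 27025 genes and 20.2% of all 32851 windows. For the mesenchymal genes it was 1 of 10 (10%). The epithelial genes are listed because EMT factors were reported to repress them, in part through such E-boxes, so this share is no independent evidence. Stretches before the transcription start of 2 of them are shown, with E-boxes in capitals: Epcam, at chr17:87635779-87635978, and Crb3, a polarity gene singled out for the 3 E-boxes in its stretch, at chr17:57062051-57062200, both on the plus strand of GRCm38.p6. Crb3 was lower by grade, at -1.51 (limma adjusted p = 0.000252).
Epcam: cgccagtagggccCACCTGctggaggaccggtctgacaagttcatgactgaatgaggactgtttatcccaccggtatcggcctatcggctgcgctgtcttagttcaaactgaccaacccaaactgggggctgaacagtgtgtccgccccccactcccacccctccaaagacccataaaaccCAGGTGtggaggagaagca
Crb3: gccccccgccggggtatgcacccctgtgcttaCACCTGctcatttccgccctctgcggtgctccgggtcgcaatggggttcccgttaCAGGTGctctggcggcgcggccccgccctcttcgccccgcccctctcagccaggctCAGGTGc

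The likeness of patterns was measured as the root mean square (RMS) difference of values centred on each gene's mean over the 20 arrays. It is 0 for the same pattern of the same size. Values were not scaled to their SD, so a small RMS difference can also come from small SDs. Among the factors Twist1 and Prrx2 had the smallest difference (0.59), then Zeb1 and Prrx1 (0.66) and Snai1 and Foxc2 (0.73). Snai2 and Foxc2 had the largest (2.48). The SD was 1.09 for Twist1 and 0.98 for Prrx2, against 1.32 for Snai1 and 1.80 for Foxc2. This order therefore does not rank shared pattern alone. For Foxc2, Snai1 was the closest of all genes, followed by Nid2 (0.85), a basement membrane protein, and Gjc1 (0.92), a connexin, against a median of 1.79. For Prrx1 the closest were Dab2 (0.57), an endocytic adaptor, Col1a2 (0.58), a collagen I chain, and Emp3 (0.62), against a median of 1.51. For Zeb2 they were the iron regulator Hfe (0.52), the metalloproteinase inhibitor Timp2 (0.54) and the lysosomal enzyme Hexa (0.54), against 1.47. For Twist2 they were Mfap2 (0.91), a microfibril protein, Bicc1 (0.92) and Lsp1 (0.92), against 1.55. These values describe the 20 arrays, which share the contrast between skin and tumor, and carry no test.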

How the data were processed

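The deposited values are log2 values between 2.337 and 14.72. The authors made them from Affymetrix MOE430 2.0 arrays by RMA (background correction, normalization and summary into probesets). The sources used here name no version of it. Of 45101 probesets, 64 array controls were left out. The annotation gave 1 gene symbol for 34945 of the rest, several for 932 and none for 9160, and 204 had a gene identifier that is not in the RefSeq table used here. The probeset with the highest mean was kept for each of 18193 genes. Groups followed the labels, and the number of arrays limits the precision.

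Linear models were fitted in R 4.3.3 with limma 3.58.1 (lmFit, then eBayes). Tests were two-sided, and p-values were adjusted by Benjamini-Hochberg across all genes. The study tested genes one at a time by a t-test. A t-test with a separate variance for each group (Welch), run on the values used here, is called the test of the methods. The study's own comparison of genotypes also held tumors of a further dataset, so its calls can differ from those given here. Grade was fitted on 11 tumors, comparisons of single classes with skin on all 20 arrays in 4 groups, and all tumors against skin as 2 groups. Other steps used Python 3.11.15, numpy 2.4.6, pandas 2.3.3 and matplotlib 3.10.9. The fits were tested on simulated data.

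The 10 factors, the gene and marker lists, the tests and the alternatives were chosen with earlier results of these data known. From each list the text names the 4 members with the largest difference by grade among those called, filled up by the smallest p, and for the 4 factors with the highest SD the 3 genes most alike. From marker lists it names those with the largest difference. Crb3 was chosen after its values were seen. The fits without tumors that stood apart in keratinocyte markers or among mixed tumors were added after seeing the data. Promoter sequences are those of RefSeq (GRCm38.p6). Some genes of the lists are not reported here, and counts are over the measured members.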

Additional observations from a re-analysis of the deposited data

Results flagged for a closer look

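In 40 groups of 4 to 6 arrays, searched for a sample far from the others, 2 values of the 10 factors stood apart, where chance gives about 1 in 20 groups. Both lie in poorly differentiated tumors. Snai1 read 4.45 in Rb;Trp53 tumor 8, against 5.67 to 6.19 in the other 5 tumors, and this tumor also had the lowest fibroblast marker level of the group (8.73). Foxc2 read 7.87 in Rb;Trp53 tumor 6, against 4.81 to 5.64 in the other 5.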

How the results depend on the processing

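Of 2264 values of single factors under other settings, 2164 kept their side of the threshold, of which 109 were not called and changed sign, 73 lost a call, 27 gained one and 0 reversed a call. The counts of factors called moved as follows, and the cause was not tested unless given. For most of these settings the share of all genes called was not counted. By grade, leaving out genes below the median level, which drops Snai1, Snai3, Prrx2 and Foxc2, gave 3 higher and 1 lower. The methods' t-test gave 4 higher and 1 lower, without Twist1, Prrx2 and Snai3. Of all 18193 genes it called 3142 by grade, 4674 in mixed tumors against skin and 527 in mixed tumors against undifferentiated/spindle carcinomas. Zeb2 was called higher in the fit of 4 groups (adjusted p = 0.0315) and with the median of probesets (0.0458), both in limma. Mixed tumors joined to undifferentiated/spindle carcinomas gave 3 higher, without Prrx1, Prrx2 and Foxc2. Joined to poorly differentiated tumors they gave 0 lower. There Snai1 (1.425, limma adjusted p = 0.177), Prrx2 (1.25, 0.115) and Foxc2 (2.05, 0.162) lost their higher calls. Zeb2 gained a higher call in that fit (1.79, limma adjusted p = 0.0333). Without both tumors that kept keratinocyte markers, 0 were lower. Leaving out 1 array at a time gave 6 to 7 higher and 1 to 2 lower. Poorly differentiated tumors against skin had 3 factors lower with the median of a gene's probesets and 4 to 5 without 1 array. Mixed tumors against skin had 0 higher with arrays centred on their median, without genes below the median level, by the methods' t-test or in a fit of these groups alone, and 0 to 2 without 1 array; 1 was lower with the median of probesets or the methods' t-test, and 1 to 3 without 1 array. Undifferentiated/spindle carcinomas against skin had 1 higher without genes below the median level or without the tumors that kept keratinocyte markers, 2 to 3 without 1 array, and 2 lower by the methods' t-test or in a fit of these groups alone. Mixed against poorly differentiated tumors had 0 lower by the methods' t-test, in a fit of these groups alone or without both extreme mixed tumors, and 0 to 1 lower and 0 to 5 higher without 1 array. Mixed tumors against undifferentiated/spindle carcinomas had 0 lower by the methods' t-test and 2 to 4 without 1 array. All tumors against skin had 0 lower with the median of probesets, 2 higher and 2 lower by the methods' t-test, and 0 to 1 higher without 1 array. Without Rb;Trp53 tumor 4, Foxc2 was lower in mixed tumors than in undifferentiated/spindle carcinomas (-2.29, adjusted p = 0.0224) and Snai2 higher in all tumors than in skin (1.24, adjusted p = 0.0409), both in limma.

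Centring arrays moved the median of all genes against skin from 0.0012 to -0.10 in poorly differentiated and from -0.0053 to -0.12 in mixed tumors, and changed only the Snai1 call named above. Replicate numbers were not taken as pairs. Same-numbered tumors of the genotypes had deviations from their genotype means with correlations of -0.478 to 0.64. The highest, 0.628 and 0.64, were those of numbers 1 and 6, whose tumors share a histological class. These deviations include histology, so the correlations cannot decide whether the numbers pair samples. With the replicate block 0 factors were higher and 1 lower in tumors against skin (Zeb2, -1.55, adjusted p = 0.0496 in limma), and 0 were called between genotypes. Dim probesets of Zeb1, Zeb2 and Prrx1 limit what their checks show.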
